A study of Rattus norvegicus with 9 samples.

Results

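The 6 genes described here are the protein-coding genes of the rat mitochondrial genome whose products are subunits of respiratory complexes III, IV and V. They are Mt-cyb (ENSRNOG00000031766), the cytochrome b of complex III; Mt-co1 (ENSRNOG00000034234), Mt-co2 (ENSRNOG00000030371) and Mt-co3 (ENSRNOG00000030700), the catalytic core of complex IV; and Mt-atp6 (ENSRNOG00000031979) and Mt-atp8 (ENSRNOG00000033299), which belong to the membrane sector of complex V. They were chosen by their place in these complexes, and all 6 were found among the 29516 gene identifiers of the count files. The count files hold identifiers without symbols, so the symbols are those under which the genes were chosen.

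Complex III passes electrons from ubiquinol to cytochrome c, complex IV passes them from cytochrome c to oxygen, and complex V uses the proton gradient that the chain builds to make ATP. Each of these complexes combines subunits made in the mitochondrion with many more that are encoded in the nucleus. The mitochondrial genome is copied into long transcripts that carry several genes and are cut into separate RNAs, largely at the tRNAs that lie between them. The reading frames of Mt-atp8 and Mt-atp6 overlap and are carried on a shared messenger RNA, as background to the comparison of these genes. Cortical neurons draw heavily on this machinery for ion pumping and synaptic signalling.

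RNA came from the cerebral cortex of male BN rats of the substrain BN/SsNOlaHSD aged 6, 12 or 28 months, described in the labels as young, middle age and old. The rats were untreated and fed freely, RNA of the animals was combined in pools of 2, and each age was deposited as 3 libraries of ribosome-depleted total RNA sequenced on the SOLiD system. The comparisons ask how the transcriptome of the cortex differs between ages. Since a library is a pool, the spread between libraries is that between pools, and pools were the replicates throughout.

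The count file of the second 6-month library and that of the third 12-month library held identical values, so the 9 files are 8 distinct libraries and the age of 1 of them is not known. This library is called the shared library below. It was left out of the main tests, which therefore rest on 2 libraries at 6 months, 2 at 12 months and 3 at 28 months, and the tests of single transcripts that used it are given beside the main ones. The 8 libraries held between 6513376 and 9196951 reads counted on genes, and 1 identifier (ENSRNOG00000043866, not named in the sources used here) took from 44.0% to 52.4% of them. Reads that the counting placed on no annotated feature made up 47.5% to 60.0% of the mapped reads. Whether they lay outside genes or within them is not given in the sources used here. The cortical neuron marker Nptxr was present in every library, between 73.3 and 175 CPM, where CPM is counts per 1000000 reads after TMM scaling of the library totals.

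Reads on the 6 transcripts were plentiful in every library. Together they held from 195890 to 354599 reads in a library, so that counting error was small for each of them: it was 1.89% at the lowest count, the 2802 reads of Mt-atp8 in 12 months sample 1. Mt-co1 ranked between 3rd and 5th of all identifiers by reads, Mt-co3 between 4th and 7th and Mt-atp6 between 5th and 10th. Mt-co2 ranked from 11th to 17th, Mt-cyb from 12th to 22nd and Mt-atp8 from 32nd to 114th. Read counts follow a transcript's length as well as its level, and no gene lengths of the study's annotation were used here, so these ranks give no order of transcript levels. How reads that also match nuclear copies of mitochondrial sequence were counted is not given in the sources used here.

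At 12 months the 6 transcripts were lower than at 6 months in the fitted values, and 2 of them passed the test: Mt-atp8 by a log2 fold change (log2FC) of -1.37 and Mt-cyb by -0.92. Between 6 and 28 months, and between 12 and 28 months, none of the 6 passed it. The size of the fitted change at 12 months ran from -1.37 for Mt-atp8 to -0.08 for Mt-co3. The calls of Mt-atp8 and Mt-cyb hold only where the shared library is left out, as set out with each comparison. Mt-atp6, carried on the same messenger RNA as Mt-atp8, had a fitted change of -0.46 and did not pass. The values of these genes are thus counts of reads per gene and not levels of separate RNAs. Where the 6 are called transcripts here, the word stands for the reads counted on each gene.

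**Figure D1:**
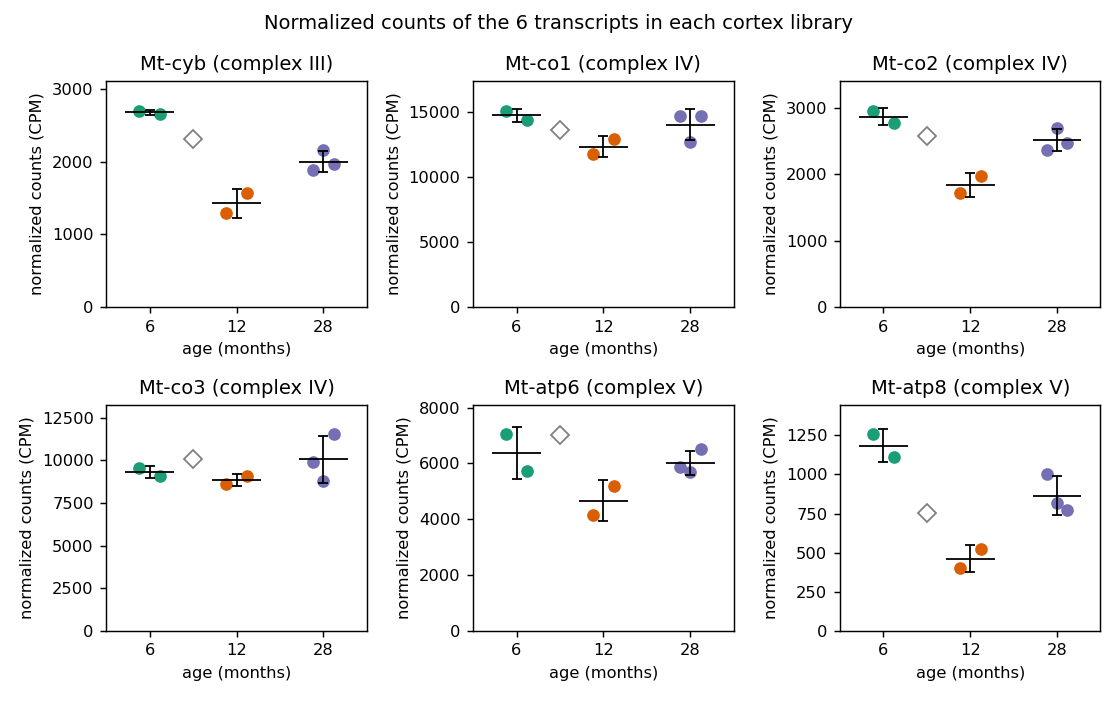
Normalized counts (CPM, linear axes from 0) of each of the 6 transcripts against age in months, with 1 point per library, a horizontal line at the mean of the 2, 2 and 3 libraries of an age, bars of 1 SD, and an open diamond for the shared library, drawn between 6 and 12 months. For Mt-cyb the 12-month libraries lie at 1288 and 1565 CPM, under all others, while the 3 ages of Mt-co3 overlap.

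Mt-cyb, the only subunit of complex III that the mitochondrion encodes, had 2704 and 2656 CPM in 6 months samples 1 and 3, 1288 and 1565 CPM in 12 months samples 1 and 2, and 1881, 2160 and 1963 CPM in 28 months samples 1 to 3. Both 12-month libraries lay below every other library, the 28-month libraries lay between, and no ages overlapped. The shared library, at 2311 CPM, lay between the 28-month and the 6-month libraries. The means were 2680 ± 33.7 CPM (SD, n = 2) at 6 months, 2001 ± 144 CPM (SD, n = 3) at 28 months and 1426 ± 196 CPM (SD, n = 2) at 12 months.

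Mt-co1 carries the haem groups and the oxygen-reducing centre of complex IV. It had 15100 and 14381 CPM at 6 months, 11772 and 12878 CPM at 12 months, and 14682, 12656 and 14699 CPM at 28 months, with 13611 CPM in the shared library. The 6-month and 12-month libraries did not overlap, but the 28-month libraries overlapped both. The order of the means was 14740 ± 509 CPM (SD, n = 2) at 6 months, 14012 ± 1175 CPM (SD, n = 3) at 28 months and 12325 ± 782 CPM (SD, n = 2) at 12 months, and no neighbours in that order passed the test.

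Mt-co2 holds the copper centre that takes electrons from cytochrome c. It had 2962 and 2775 CPM at 6 months, 1717 and 1969 CPM at 12 months, and 2371, 2692 and 2476 CPM at 28 months, with 2584 CPM in the shared library. As for Mt-cyb, the 3 ages did not overlap, with 12 months lowest and 6 months highest. The means were 2869 ± 132 CPM (SD, n = 2), 1843 ± 178 CPM (SD, n = 2) and 2513 ± 164 CPM (SD, n = 3) at 6, 12 and 28 months.

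Mt-co3 is the remaining core subunit of complex IV. It had 9549 and 9070 CPM at 6 months, 8600 and 9083 CPM at 12 months, and 9901, 8773 and 11526 CPM at 28 months, with 10081 CPM in the shared library. All 3 ages overlapped, and the highest library was 28 months sample 3. The means were 10066 ± 1384 CPM (SD, n = 3) at 28 months, 9309 ± 339 CPM (SD, n = 2) at 6 months and 8841 ± 341 CPM (SD, n = 2) at 12 months.

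Mt-atp6, which forms the proton path of complex V, had 7044 and 5718 CPM at 6 months, 4147 and 5179 CPM at 12 months, and 5859, 5693 and 6515 CPM at 28 months, with 7006 CPM in the shared library. Both 12-month libraries lay below all the others, and the 6-month and 28-month libraries overlapped. The 6-month libraries differed by more than those of 28 months, and their means were 6381 ± 938 CPM (SD, n = 2) and 6022 ± 435 CPM (SD, n = 3), against 4663 ± 730 CPM (SD, n = 2) at 12 months.

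Mt-atp8, a small subunit of the stalk of complex V, had 1258 and 1109 CPM at 6 months, 399 and 525 CPM at 12 months, and 1005, 819 and 772 CPM at 28 months. No ages overlapped, and 12 months was again the lowest and 6 months the highest. The shared library had 751 CPM, just under the lowest 28-month library and above both 12-month libraries. The means were 1183 ± 105 CPM (SD, n = 2), 462 ± 88.5 CPM (SD, n = 2) and 865 ± 123 CPM (SD, n = 3) at 6, 12 and 28 months.

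Over the 8 libraries the highest value was 3.15 times the lowest for Mt-atp8 and 2.10 times the lowest for Mt-cyb, against 1.72 for Mt-co2, 1.70 for Mt-atp6, 1.34 for Mt-co3 and 1.28 for Mt-co1. The lowest library was 12 months sample 1 for all 6 transcripts. The highest was 6 months sample 1 for 5 of them, and 28 months sample 3 for Mt-co3.

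Between 6 and 12 months, the edgeR quasi-likelihood test called 2 of the 6 genes differentially expressed at a false discovery rate (FDR) of 0.05, where it called 1.20% of the 15966 identifiers tested. Reads counted on Mt-atp8 were lower at 12 months by a log2FC of -1.37 (SE 0.18, edgeR FDR 0.00805), and those on Mt-cyb by -0.92 (SE 0.16, edgeR FDR 0.0324). The other members did not pass: Mt-co2 had a log2FC of -0.65 (SE 0.16, FDR 0.113), Mt-atp6 of -0.46 (SE 0.18, FDR 0.317), Mt-co1 of -0.27 (SE 0.15, FDR 0.494) and Mt-co3 of -0.08 (SE 0.15, FDR 0.853). All 6 fitted values were negative with a median of -0.55, against a median of -0.01 over all identifiers tested. The edgeR exact test also called Mt-cyb and Mt-atp8, and DESeq2 called Mt-co2 as well, with a DESeq2 FDR of 0.0189.

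The normalized counts of the 2 ages did not overlap for 5 of the 6 transcripts, all but Mt-co3. With 2 libraries at each age, the same was true of 45.4% of all identifiers tested.

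Both calls were lost once the shared library was used. With all 9 files at their labelled ages, the same counts stand at both ages and draw them together by construction. The log2FC of Mt-atp8 was then -0.90 and that of Mt-cyb -0.57, each with an edgeR FDR of 0.997. No identifier in the whole table was called in that setting. With the shared library at 6 months alone the values were -1.18 (edgeR FDR 0.328) for Mt-atp8 and -0.85 (edgeR FDR 0.314) for Mt-cyb, and at 12 months alone they were -1.10 (edgeR FDR 0.120) and -0.65 (edgeR FDR 0.359). Mt-cyb also lost its call when only identifiers with at least 10 reads in every library were tested, and Mt-atp8 kept its call in each of the other alternatives. All 6 transcripts kept a negative sign in all 15 alternatives. These alternatives reuse the same libraries, and the 6 share each library's scaling, so the signs are not separate measurements.

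**Figure D2:**
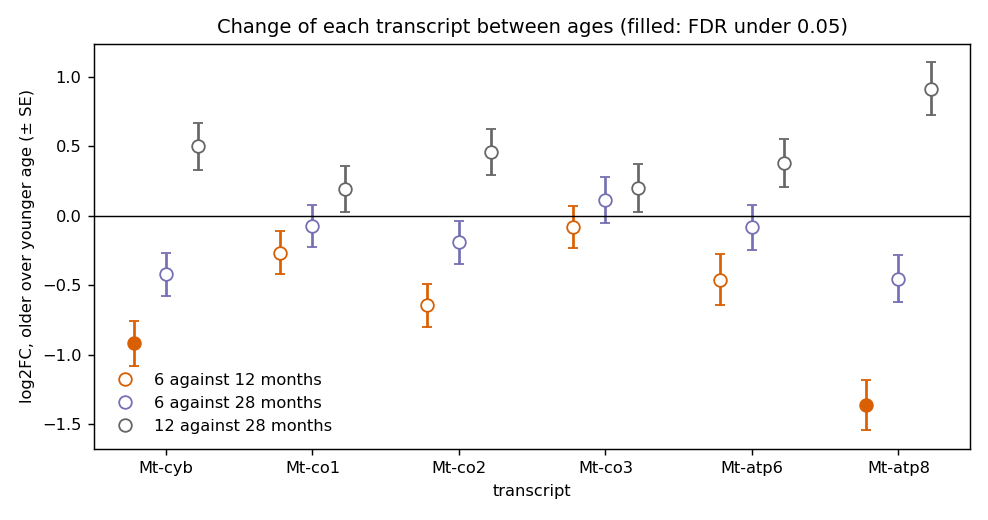
Fitted log2FC of each of the 6 transcripts in 3 comparisons of ages, older over younger, with bars of 1 SE; filled points had an edgeR quasi-likelihood FDR under 0.05. The filled points are Mt-cyb at -0.92 and Mt-atp8 at -1.37 between 6 and 12 months, and that of Mt-co3 in the same comparison is -0.08.

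Between 6 and 28 months, edgeR's quasi-likelihood test called 0 of the 6 transcripts. At an unadjusted p under 0.05 in that test stood 2 of them, Mt-cyb and Mt-atp8, and 1035 of the 16042 identifiers tested. The quasi-likelihood test called 0.206% of the 16042 identifiers at the FDR threshold, and the edgeR exact test and DESeq2 also called 0 of the 6. The log2FC was -0.45 for Mt-atp8 (SE 0.17, edgeR FDR 0.688) and -0.42 for Mt-cyb (SE 0.15, edgeR FDR 0.671). It was -0.19 for Mt-co2, -0.08 for Mt-atp6, -0.07 for Mt-co1 and 0.11 for Mt-co3, with edgeR FDR from 0.887 to 0.957. The median of the 6 was -0.14, against -0.01 over all identifiers.

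The libraries of 6 and 28 months did not overlap for 3 of the 6, Mt-cyb, Mt-co2 and Mt-atp8, where 21.9% of all identifiers did not overlap. For Mt-atp6 the sign rested on 1 library, and without 6 months sample 1 its log2FC was 0.08. With the shared library placed at 6 months, Mt-cyb had a log2FC of -0.35 and Mt-atp8 of -0.26, and no transcript of the 6 was called.

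Between 12 and 28 months, edgeR's quasi-likelihood test called 0 of the 6 transcripts, and it called 0.120% of the 15840 identifiers tested. At an unadjusted p under 0.05 in that test stood 4 of the 6, and 1216 of the 15840 identifiers. All 6 fitted values were positive, with a median of 0.42 against 0.01 over all identifiers. Mt-atp8 had the largest value, 0.91 (SE 0.19, edgeR FDR 0.114), followed by Mt-cyb with 0.50 (SE 0.17, edgeR FDR 0.492) and Mt-co2 with 0.46 (SE 0.17, edgeR FDR 0.525). Mt-atp6 had 0.38, Mt-co3 0.20 and Mt-co1 0.19, with edgeR FDR from 0.643 to 0.814.

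Other tools placed Mt-atp8 on the other side of the threshold between 12 and 28 months. Its FDR was 0.0326 by the edgeR exact test and 0.000857 by DESeq2, which called no other member. With the shared library placed at 12 months, its log2FC was 0.63 (edgeR FDR 0.998). The libraries of the 2 ages did not overlap for 4 of the 6, all but Mt-co1 and Mt-co3, where 24.6% of all identifiers did not overlap. The comparisons of 6 with 12 and of 12 with 28 months use the same 12-month libraries, so their values are not separate measurements of a low level at 12 months.

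A single fit of the 7 libraries set 12 months against the mean of 6 and 28 months. It called 1 of the 6 transcripts, Mt-atp8, with a log2FC of -1.14 (SE 0.17, edgeR FDR 0.00781), and 0.663% of the 16283 identifiers tested. Mt-cyb had -0.71 (SE 0.15, edgeR FDR 0.0595), Mt-co2 -0.55, Mt-atp6 -0.42, Mt-co1 -0.23 and Mt-co3 -0.14, with edgeR FDR from 0.145 to 0.787 for the latter 4. The call of Mt-atp8 was lost without 12 months sample 1 (edgeR FDR 0.182) and without 12 months sample 2 (edgeR FDR 0.0681), when the age was left with a single library. It was also lost with the shared library at either age or both, with edgeR FDR from 0.134 to 0.996.

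As a share of all reads on genes, the 6 transcripts together made up 3.86% and 3.58% at 6 months, 2.71% and 3.11% at 12 months, and 3.34%, 3.64% and 3.54% at 28 months. The shared library had 3.86%. The 12-month libraries lay below all the others. The difference of the means was -0.81 percentage points for 12 against 6 months (p = 0.333, exact permutation, two-sided), 0.60 points between 12 and 28 months (exact permutation p = 0.2) and -0.21 points between 6 and 28 months (exact permutation p = 0.4). The smallest p these tests allow is 0.333 for 2 libraries against 2 and 0.2 for 2 against 3, so none of them could pass 0.05.

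Since 1 identifier took about as many reads as all others combined, the shares were also taken without it. They were then 7.25% and 7.15% at 6 months, 5.71% and 6.44% at 12 months, and 7.03%, 6.50% and 7.26% at 28 months, with 7.06% in the shared library. Both 12-month libraries were again the lowest, while 28 months sample 3 became the highest and 28 months sample 2 came next to 12 months sample 2. The abundant identifier itself had a log2FC of 0.13 (SE 0.15, edgeR FDR 0.765) between 6 and 12 months.

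**Figure D3:**
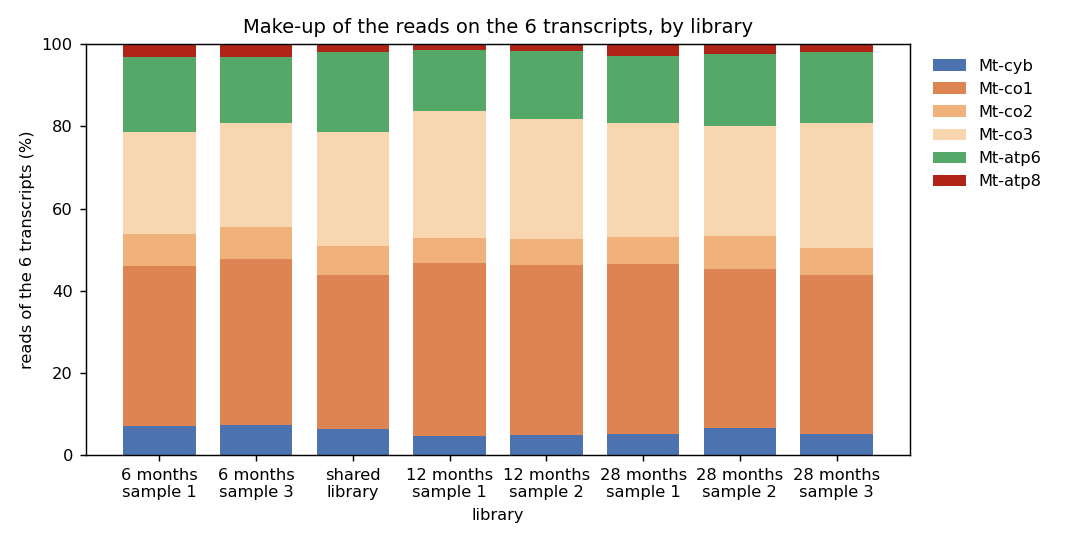
Reads of each of the 6 transcripts as a percentage of the reads on all 6, stacked to 100% for each of the 8 distinct libraries. The share of Mt-atp8, the top segment, lies between 1.43% and 3.26%, and that of Mt-co3 between 24.7% and 30.8%.

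The make-up of the members' own reads does not depend on how libraries are scaled to one another. Mt-atp8 made up 3.26% and 3.11% of the reads on the 6 transcripts at 6 months, 1.43% and 1.68% at 12 months, and 2.82%, 2.50% and 2.03% at 28 months. Mt-cyb made up 7.0% and 7.44%, then 4.61% and 5.02%, then 5.27%, 6.59% and 5.17%. Both were lowest in the 12-month libraries.

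Mt-co3 had its lowest shares at 6 months, with 24.7% and 25.4% at 6 months, 30.8% and 29.1% at 12 months, and 27.7%, 26.8% and 30.4% at 28 months. Mt-co1 made up 39.1% and 40.3%, then 42.2% and 41.3%, then 41.1%, 38.6% and 38.7%. In the shared library the shares were 6.36% for Mt-cyb, 37.5% for Mt-co1, 27.7% for Mt-co3 and 2.07% for Mt-atp8. Mt-co2 made up 7.67% and 7.77% at 6 months, 6.15% and 6.31% at 12 months, and 6.64%, 8.21% and 6.52% at 28 months. Its share, too, was lowest in the 12-month libraries, and it was 7.11% in the shared library. Mt-atp6 lay between 14.9% and 19.3% over the 8 libraries. In exact permutation tests of each share in each comparison, 18 in all, the lowest p adjusted over the 18 was 0.5, and the design could not have given a p under 0.05.

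The reads of Mt-atp6 per read of Mt-atp8, 2 genes carried on a shared messenger RNA, were 5.60 and 5.16 at 6 months, 10.4 and 9.87 at 12 months, 5.83, 6.95 and 8.44 at 28 months, and 9.33 in the shared library. The 12-month libraries had the highest ratios and the 6-month libraries the lowest. This pair and those that follow were chosen after their values were seen and were not tested. The reads of Mt-co3 per read of Mt-atp8 ran from 7.59 in 6 months sample 1 to 21.5 in 12 months sample 1, whereas those of Mt-co1 per read of Mt-co3 ran only from 1.28 to 1.59.

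Across the 8 distinct libraries, the log2 CPM of the members moved together to unequal degrees. Over the 15 pairs Pearson's r lay between 0.23 and 0.975, with a median of 0.75. The tightest pair was Mt-cyb and Mt-co2, with r = 0.975 (exact permutation, adjusted p = 0.00317 over 16 relations) and Spearman's rho = 0.976 (exact permutation, adjusted p = 0.00635). Without the 2 libraries farthest from the median of Mt-cyb, r was 0.92.

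With all 8 libraries, 5 pairs had an adjusted p under 0.05 by Pearson's r and 1 by Spearman's rho. The other 4 were Mt-atp8 with Mt-co2 (r = 0.921), Mt-cyb (r = 0.904) and Mt-co1 (r = 0.856), and Mt-co2 with Mt-atp6 (r = 0.841). Without the 2 farthest libraries these fell to 0.58, 0.60 and 0.23 for Mt-atp8 with Mt-co2, Mt-cyb with Mt-atp8 and Mt-co2 with Mt-atp6. Mt-co1 with Mt-atp8 had 0.87. There the libraries farthest from the median of Mt-co1 were 12 months sample 1 and 28 months sample 2. That removal kept 12 months sample 2, so the 0.87 cannot be compared with the other values. The lowest values were those of Mt-co3 with Mt-cyb (r = 0.23), Mt-atp8 (r = 0.29) and Mt-co2 (r = 0.30). Over the 7 libraries without the shared one, 5 pairs passed by Pearson's r and 4 by Spearman's rho. Mt-co1 with Mt-atp6 (r = 0.886, exact permutation, adjusted p = 0.0275) then passed and Mt-co1 with Mt-atp8 (r = 0.856, exact permutation, adjusted p = 0.0557) did not. Mt-cyb with Mt-co2 had r = 0.977 there. Without the 2 farthest of these 7 libraries, r was 0.818 for Mt-cyb with Mt-atp8, 0.605 for Mt-co2 with Mt-atp8 and 0.357 for Mt-co2 with Mt-atp6. The libraries farthest from the median of Mt-co2 were both 12-month libraries in either set. The r of Mt-co2 with Mt-atp8 and with Mt-atp6 was thus lower without the 12-month libraries. Few libraries then remained, and the difference was not tested. For Mt-cyb the farthest were both 12-month libraries among the 8, but 12 months sample 1 and 6 months sample 1 among the 7. The values of Mt-cyb with Mt-atp8 without the farthest libraries therefore come from unlike removals and cannot be compared. An age holds at most 3 libraries, too few for a correlation within it, and all values share the scaling of their library.

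**Figure D4:**
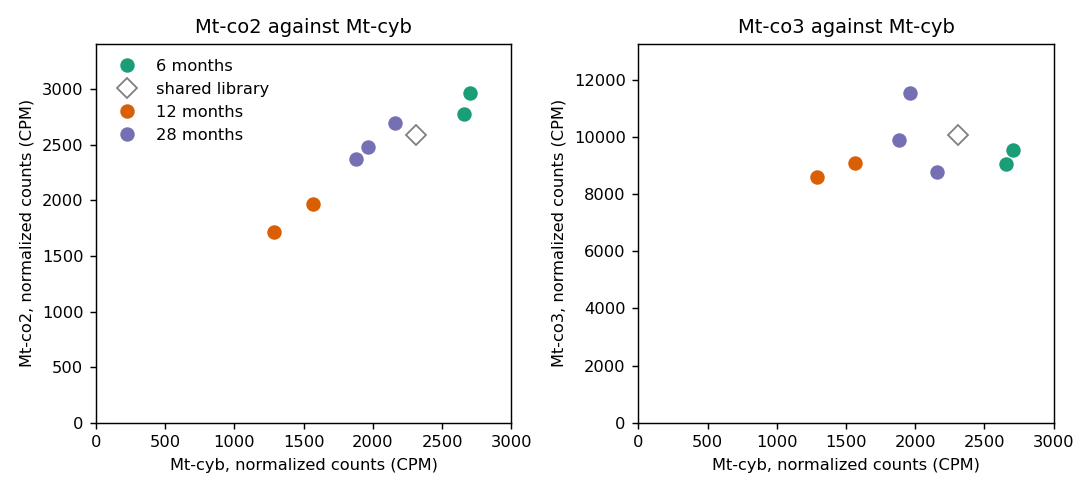
Normalized counts (CPM, linear axes from 0) of Mt-co2, left, and Mt-co3, right, against those of Mt-cyb, with 1 point per library, coloured by age, and the shared library as an open diamond. Mt-co2 follows Mt-cyb over the 8 libraries (r = 0.975 on log2 values) and Mt-co3 does not (r = 0.23).

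The mean log2 CPM of the 6 transcripts was also set against every other identifier with a mean of at least 100 reads. Of these 5574 identifiers, 23 (0.413%) had an r above 0.9 over the 8 libraries, and the median r was 0.08. The most alike were ENSRNOG00000031033, with r = 0.995, and ENSRNOG00000029971, with r = 0.993, neither of which the sources used here name. ENSRNOG00000031033 had 1838 and 1585 CPM at 6 months, 784 and 976 CPM at 12 months, and 1400, 1402 and 1465 CPM at 28 months. The abundant identifier ENSRNOG00000043866 had r = -0.31 with the members' mean (exact permutation, adjusted p = 0.536), and -0.28 without the shared library (exact permutation, adjusted p = 0.618).

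The study's tables name 6 mitochondrial tRNAs, chosen there on these same samples, so their direction is no separate evidence. Between 6 and 12 months their log2FC ran from -1.54 to -1.88, and 5 of the 6 passed the edgeR quasi-likelihood test, all lower at 12 months. That test called 1.20% of the 15966 identifiers. With all 9 files at their labelled ages it called no identifier, so these calls, too, were lost. The summed level of the tRNAs was 976 and 866 CPM at 6 months, 208 and 353 CPM at 12 months, 631, 289 and 323 CPM at 28 months, and 253 CPM in the shared library. In these tRNAs the shared library and 2 of the 28-month libraries lay within the range of the 12-month libraries. The r of a single tRNA with the members' mean ran from 0.52 to 0.86. Of 49 other genes of the respiratory complexes and of mitochondrial transcription listed for comparison, 0 were paired with an identifier in the tables at hand, so none is described.

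Several properties of the libraries also differed between 6 and 12 months. The share of mapped reads placed on no annotated feature was 57.1% and 54.0% at 6 months and 47.5% and 50.6% at 12 months. It was 50.4%, 60.0% and 53.7% at 28 months. Reads that the counting could not assign because genes overlap made up 0.0750% and 0.0794% of mapped reads at 6 months and 0.0356% and 0.0481% at 12 months, with 0.0707%, 0.0432% and 0.0459% at 28 months, so that 2 of the 28-month libraries lay within the range of 12 months. Overlap bears on Mt-atp8 and Mt-atp6 in particular, and reads in the stretch they share may be lost to both. The part of either in the results was not tested.

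Markers of cell types also differed between ages. The study had called each marker given here, as a gene or a transcript, differentially expressed with age in these same samples. Their differences are therefore no separate evidence. Between 6 and 12 months, the normalized counts of 45.4% of all identifiers tested did not overlap. Gfap, an astrocyte gene, ran from 72.4 to 89.1 CPM at 6 months, 145 to 155 CPM at 12 months and 52.3 to 77.0 CPM at 28 months. Cd74, of microglia and other antigen-presenting cells, ran from 5.04 to 5.12, 28.4 to 35.9 and 6.98 to 12.9 CPM, and Aif1, also of microglia, from 5.15 to 5.66, 8.79 to 8.98 and 2.49 to 3.46 CPM. Nptxr, of cortical neurons, ran from 117 to 129, 80.7 to 99.2 and 101 to 175 CPM. Arc, also of neurons, had 58.8 to 59.1, 35.7 to 61.7 and 24.7 to 43.1 CPM, and LOC689064, taken as a blood marker, 22.9 to 31.4, 33.4 to 50.5 and 17.2 to 29.0 CPM. The shared library had 151 CPM of Gfap, 23.3 of Cd74, 4.88 of Aif1, 73.3 of Nptxr, 15.9 of Arc and 64.7 of LOC689064.

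Of these 6 markers, Nptxr was lowest and Gfap, Aif1, Cd74 and LOC689064 highest at 12 months among the 7 libraries. Arc, the other neuron marker, was neither. Its 12-month values of 35.7 to 61.7 CPM overlapped both other ages, and its lowest value, 24.7 CPM, was at 28 months. The share of all identifiers that were lowest or highest at 12 months was not counted. None of the 6 markers was at 0 in any library. Their part in the levels of the 6 transcripts was not tested. In whole cortex, fewer cells of a type and less RNA per cell cannot be told apart.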

How the data were processed

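Read counts per gene of 9 files (8 distinct libraries) were used. Per the labels and the study's methods, the authors mapped the SOLiD reads to the Ensembl rat genome with Bowtie and deposited raw counts per gene made with HTSeq; the strand setting and the treatment of reads with several positions, which matters for nuclear copies of mitochondrial sequence, are not given in the sources used here. The 5 summary lines of each file were left out of totals and tests.

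Identifiers with at least 5 reads in at least 1 library compared were tested with the edgeR quasi-likelihood test (edgeR 4.0.16, R 4.3.3) after TMM scaling, in pairwise fits as in the study, with Benjamini-Hochberg FDR over all identifiers tested and a threshold of 0.05. The SE of a log2FC was derived as its absolute value over the square root of the F statistic of that test. Shares and correlations were tested by exact permutation (scipy 1.17.1). On simulated counts with 200 identifiers changed by a log2FC of 2, the test recovered 193 (96.5%) between 6 and 12 months and made 23 false calls. These false calls were a larger share of its calls than the threshold of 0.05. No member's fitted change was as large as the simulated one. CPM were scaled over the 8 libraries. Alternatives were the shared library at either age or both, the edgeR exact test (likelihood ratio test in the fit of 3 ages), DESeq2 1.42.0, other scalings and filters, and leaving out each library.

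The 6 transcripts and the lists were chosen with earlier results of these data known. The transcripts named outside the 6 were, by rule, the most abundant identifier, the mitochondrial tRNAs of the study's tables and the 2 identifiers most like the members' mean. Of the cell type markers listed, 1 is not reported here.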

Additional observations from a re-analysis of the deposited data

How the results depend on the processing

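Of 360 values of log2FC of the 6 transcripts under alternatives, 335 kept their direction and their side of the threshold, 12 lost a call, 12 gained one and 1 reversed, Mt-atp6 between 6 and 28 months (0.077 without 6 months sample 1, and down to -0.23 without 6 months sample 3). Between 6 and 12 months, 0 of the 6 were called with all 9 files as labelled, 0 with the shared library at 6 months and 0 with it at 12 months, and 1 (Mt-atp8) with at least 10 reads in every library; without 1 library, 2 to 3 were called, Mt-co2 being added without 6 months sample 3. Over all identifiers the 191 calls became 0, 19 and 109 with the shared library as labelled, at 6 months and at 12 months, 463 with the exact test, 112 with at least 1 read in any library, and 360 to 889 without each library in turn. Between 6 and 28 months the 33 calls became 18 with all 9 files, 138 with the exact test, 72 with DESeq2, 199 with at least 1 read, and 0 (without 28 months sample 3) to 137. Between 12 and 28 months Mt-atp8 made 1 call in the exact test, 1 in DESeq2 and 1 with at least 1 read in any library, and 0 to 1 without each library (1 without 28 months sample 2). The 19 calls over all identifiers became 9 with all 9 files, 128, 82, 7 with library totals alone, 139 with at least 1 read, and 0 to 142. For 12 months against the mean of the other ages, 0 of the 6 were called with the shared library as labelled, 0 with it at 6 months, 0 with it at 12 months, 2 by the likelihood ratio test, 3 by DESeq2, 3 with at least 1 read, and 0 to 2 without each library. The 108 calls over all identifiers became 0, 21 and 44 with the shared library, 283, 191 and 292 with those tests and that filter, and 0 to 148. The cause was not tested. Against 28 months, placing the shared library at a single age gives the same pairwise fit as with all 9 files or without it, and was not run separately.

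Between 6 and 28 months the share of Mt-co1 in the reads of the 6 (-0.20 percentage points) was 0.54 with all 9 files and -1.03 to 0.38 without each library, and that of Mt-atp6 (-0.15) was -1.26 to 0.97. Where an age was left with 1 library, that library was assumed to vary like the others. No paired analysis was possible because the labels number the libraries in a single run across the ages, and the sample numbers used here, given in order within an age, only name libraries. The counting error of a member was at most 1.89%.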
